A study of Homo sapiens with 12 samples.

Results

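Entry into mitosis depends on a small group of kinases and their regulators, and 10 of their genes were followed here in CAMA-1 cells, a long-established ER-positive line from a human breast tumour (ER, oestrogen receptor). The genes were CCNB1, CCNB2, CDK1, AURKA, AURKB, PLK1, NEK2, WEE1, PKMYT1 and CDC25C. They were chosen by symbol for their roles in mitosis, with earlier results of these data known. They are 10 of the 60612 named rows of the count table and 10 of the 11803 genes that held enough counts to be tested. All 10 passed the filter on low counts.

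Cyclin B binds CDK1 to form the kinase that drives a cell from G2 into mitosis. WEE1 and PKMYT1 hold this kinase inactive by phosphorylating CDK1, and CDC25C removes those phosphates. PLK1 and the Aurora kinases act around it: AURKA at the centrosomes and spindle poles, AURKB at the centromeres within the chromosomal passenger complex, and PLK1 at several mitotic structures, while NEK2 helps to separate the centrosomes. The messages of most of these genes are known to rise in G2 of cycling cells and to be low in resting ones.

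Wild-type CAMA-1 cells in RPMI-1640 with fetal bovine serum were given vehicle (DMSO), 100 nM abemaciclib, which inhibits CDK4/6, 5 nM fulvestrant, which degrades the ER, or both agents, with no doses restated in the labels for the combination. Treatment lasted 5 days. Each of the 4 groups held 3 libraries, described as biological replicates, made by 3′ RNA sequencing of 1 cell line. The question put to these genes is how far each drug alone, and both together, lowered them.

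Totals ranged from 3299119 to 5164667 counts per library, and levels are given as CPM (counts scaled to a common library size) with TMM factors, which adjust for composition. All 8 luminal markers of the cell label were tested, ESR1, GATA3 and KRT8 among them, with a summed level of 6343 to 8383 CPM per library, whereas the basal markers (KRT5, KRT14 and TP63) summed to at most 1.14 CPM, the immune markers to at most 1.72 CPM and the endothelial markers to at most 0.844 CPM. Of the fibroblast markers, COL1A1 and COL3A1 were present (sum of all 4, 17.8 to 36.8 CPM) and COL1A2 and PDGFRB had 0 counts in every library. COL3A1 moved with treatment, from a mean of 3.36 CPM in DMSO to 9.00 CPM under fulvestrant (log2 fold change 1.41 ± 0.30) and 6.92 CPM in the combination (1.05 ± 0.30), and COL1A1 was higher under abemaciclib (0.45 ± 0.17) and fulvestrant (0.48 ± 0.17). Their part in the results below was not tested. Fulvestrant replicate 3 stood apart from its group (correlation of log2 CPM with the other libraries of its group 0.970 and 0.978, against 0.981 to 0.988 within the other pairs of replicates), and results that change without it are named. Differences were tested with edgeR's quasi-likelihood F test and called at a Benjamini-Hochberg adjusted p below 0.05 over all 11803 genes. With 3 libraries against 3, an exact permutation test of a single value could not go below p = 0.1.

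Against DMSO, abemaciclib lowered all 10 genes, fulvestrant lowered 9 and the combination lowered 10. The background was 20.7% of all genes tested called lower under abemaciclib, 25.7% under fulvestrant and 27.5% under the combination. The median log2 fold change of the 10 genes was -1.75 under abemaciclib, -3.31 under fulvestrant and -6.36 under the combination, or -6.18 with the genes at the floor set to their bound, while the median of all genes tested was 0.00, 0.01 and 0.01. The 3 comparisons share the DMSO libraries. Where no library of a group held more than 3 counts of a gene, that group is described as at the floor. In these bulk samples, fewer cells in G2 or mitosis and less message per cell cannot be told apart.

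**Figure D1:**
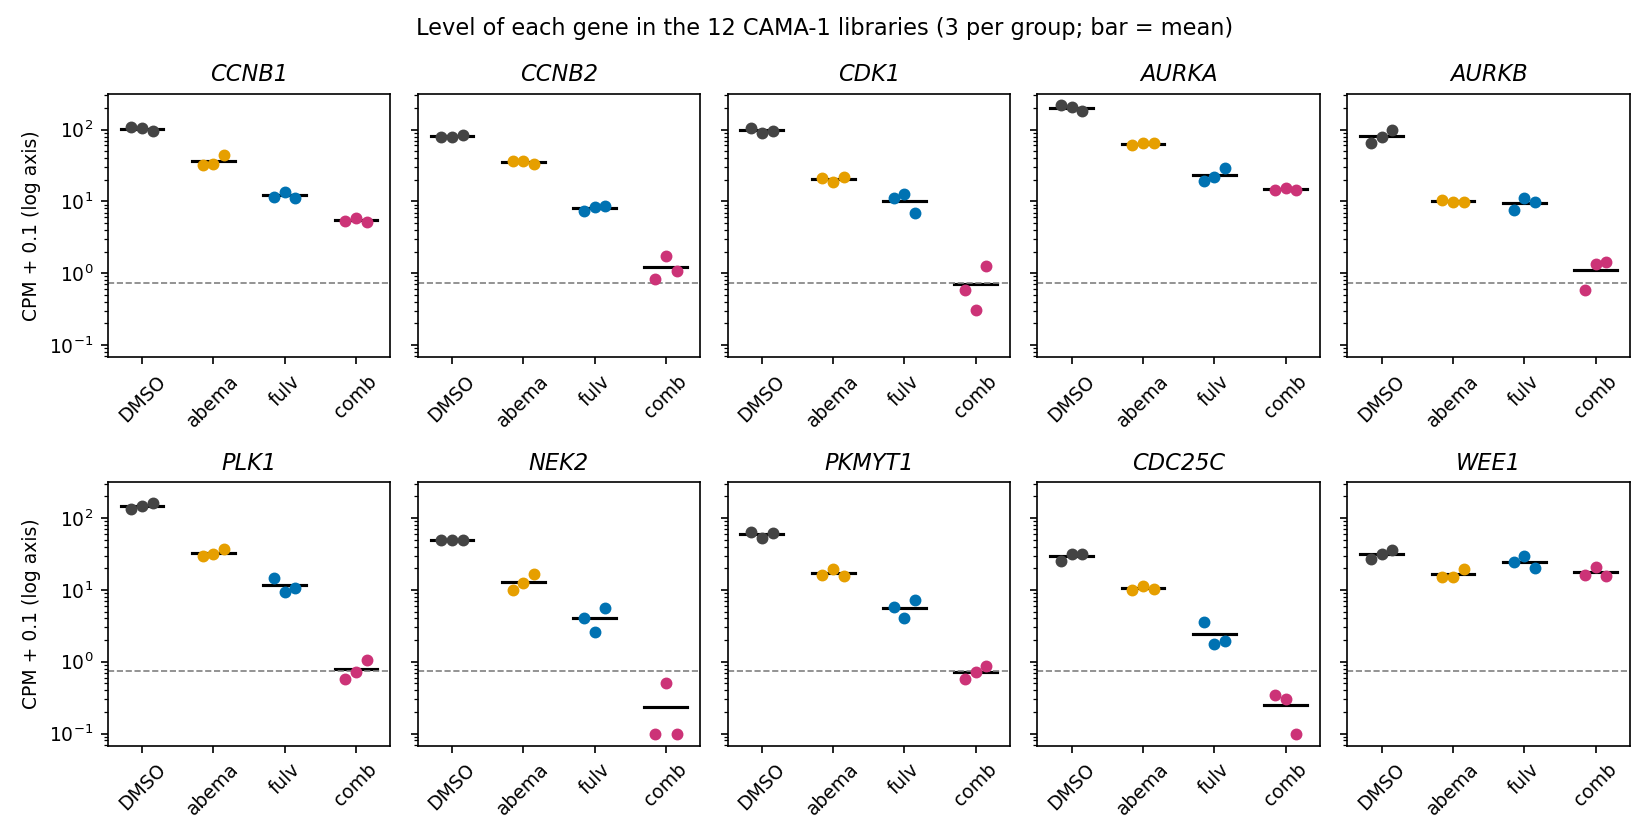
Level of each of the 10 genes in the 12 libraries. Each point is 1 library (3 per group), the bar is the group mean, the y axis is CPM + 0.1 on a log scale, and the dashed line is the mean level of 3 counts in the combination libraries (0.640 CPM, drawn + 0.1). In 9 panels the groups step down from DMSO to the combination, with the means of CDK1, PKMYT1, NEK2 and CDC25C ending below the dashed line, whereas WEE1 stays between 15.2 and 35.7 CPM in all 12 libraries.

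The promoters of these genes are shown because the genes moved together and because 2 short motifs are known from mitotic promoters: the cell cycle homology region (CHR, searched as TTTGAA) and the CCAAT box (searched as CCAAT), each on both strands. RefSeq promoter windows on GRCh38.p14, from 250 bases before to 50 after a start, were at hand for 7 of the 10 genes, and AURKA, WEE1 and PKMYT1 had no entry. A CCAAT box lay in a window of 7 of the 7 genes, against 39.7% of the 27305 genes with a window, and 5 of the 7 held 2 or more in 1 window, against 12.9%. The CHR letters lay in a window of 4 of the 7 (CCNB2, CDK1, PLK1 and CDC25C), against 18.2% of genes, and in each of those 4 a single window also held a CCAAT box, against 7.26%. The letters TTCGAA, a variant of the CHR, were found in 0 of the 7 genes, against 1.82% of genes. Of the E2F motifs searched, TTCCCGC was found in CDC25C alone (7.82% of genes) and TTGGCGC in CDK1 alone (3.66% of genes). Genes with several starts, such as CDC25C with 4 windows and CDK1 with 2, had more sequence in which to find a match. The 100 bases before the start are printed 5′ to 3′ on the strand of the gene for the B cyclins, CDK1 at its first start, PLK1 and NEK2, with each match to a motif in capitals:
CCNB1 (chr5:69167050-69167149, plus strand): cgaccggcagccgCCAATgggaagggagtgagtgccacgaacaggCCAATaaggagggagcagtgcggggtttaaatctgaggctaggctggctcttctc
CCNB2 (chr15:59105046-59105145, plus strand): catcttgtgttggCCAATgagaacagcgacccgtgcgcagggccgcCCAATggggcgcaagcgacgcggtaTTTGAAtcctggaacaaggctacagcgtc
CDK1 (chr10:60778231-60778330, plus strand): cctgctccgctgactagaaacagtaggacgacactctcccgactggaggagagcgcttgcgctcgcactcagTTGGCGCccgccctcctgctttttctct
PLK1 (chr16:23678789-23678888, plus strand): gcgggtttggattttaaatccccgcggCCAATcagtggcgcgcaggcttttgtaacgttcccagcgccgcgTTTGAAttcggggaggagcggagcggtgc
NEK2 (chr1:211675622-211675721, minus strand): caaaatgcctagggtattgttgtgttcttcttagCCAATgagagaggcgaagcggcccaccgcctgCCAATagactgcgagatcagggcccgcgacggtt

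In these stretches CCNB2 and PLK1 each carried the CHR letters with the first base at -29 from the start. The pair of CCAAT boxes began at -87 and -55 in CCNB1, at -87 and -54 in CCNB2 and at -66 and -34 in NEK2, and the single box of PLK1 began at -73. The stretch printed for CDK1 holds neither of these motifs. Further up the same window, CHR letters began at -161 and a CCAAT box at -150. In the window of its second start, CHR letters began at -69, -13 and 10 and CCAAT boxes at -78 and -46. A match of letters is a description of the sequence and was not tested for binding.

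**Figure D2:**
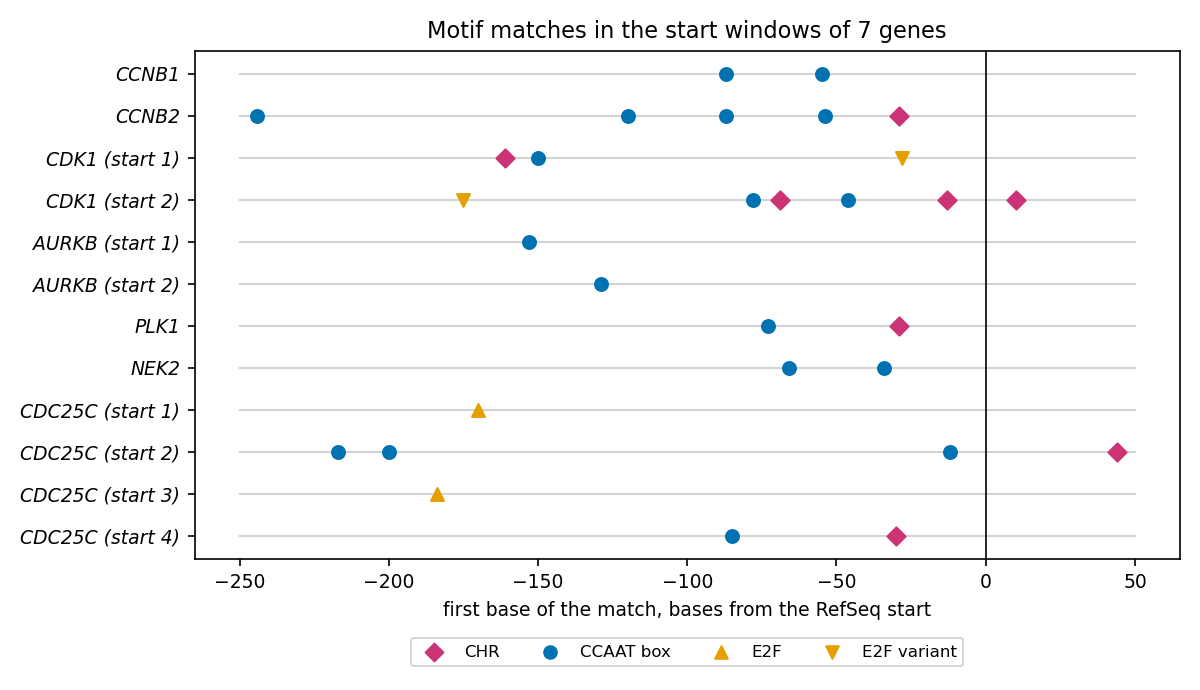
Position of motif matches in the RefSeq start windows of 7 genes. Each grey line is 1 window, the x axis gives the first base of a match in bases from the start, and symbols mark the CHR, CCAAT box and E2F letters on either strand. The CHR matches of CCNB2 and PLK1 sit at the same distance, -29, and each gene has at least 1 CCAAT box in a window.

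The B cyclins and CDK1 form the core of the mitotic kinase. CCNB1 (chr5:69167135-69178245 on GRCh38, plus strand) encodes cyclin B1. It was read at 108, 105 and 96.5 CPM in DMSO, at 32.3, 33.5 and 43.8 CPM under abemaciclib, at 11.3, 13.5 and 11.1 CPM under fulvestrant, and at 5.28, 5.77 and 5.03 CPM in the combination. No group overlapped another, and the 3 treated means were 35.5%, 11.6% and 5.21% of the DMSO mean. The log2 fold change against DMSO was -1.50 ± 0.12 (SE) for abemaciclib, -3.11 ± 0.14 for fulvestrant and -4.26 ± 0.15 for the combination.

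CCNB2 (chr15:59105126-59125045, plus strand) encodes cyclin B2. Its levels were 79.9, 78.6 and 84.1 CPM in DMSO, 36.1, 37.0 and 33.5 CPM under abemaciclib, 7.14, 8.16 and 8.63 CPM under fulvestrant and 0.720, 1.65 and 0.968 CPM in the combination. The treated means were 43.9%, 9.87% and 1.38% of the DMSO mean, and no group overlapped another. The combination value rests on 3, 8 and 5 counts per library.

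CDK1 (chr10:60778331-60794852, plus strand), the catalytic partner of both cyclins, was read at 106, 90.7 and 96.5 CPM in DMSO and fell to 21.3, 18.5 and 21.4 CPM under abemaciclib, a log2 fold change of -2.25 ± 0.15. Under fulvestrant the libraries held 11.1, 12.7 and 6.82 CPM, and in the combination 2, 1 and 6 counts, which pool to 0.635 CPM (95% Poisson interval 0.290 to 1.20, counting error only). The combination mean was 0.630% of the DMSO mean, with every combination library below every fulvestrant library. The log2 fold change against DMSO was -7.20 ± 0.25, or -8.07 without combination replicate 3, which held 6 of the 9 counts.

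Of AURKA, AURKB, PLK1 and NEK2, AURKA (chr20:56369389-56392337, minus strand) kept the largest share of its DMSO level in the combination, 7.27%. It was read at 216, 207 and 184 CPM in DMSO, at 60.8, 65.6 and 64.0 CPM under abemaciclib, at 19.2, 21.7 and 28.9 CPM under fulvestrant and at 14.4, 15.3 and 14.5 CPM in the combination. The groups did not overlap, although the fulvestrant libraries were spread (23.2 ± 5.01 CPM, SD, n = 3) and replicate 3 was the highest of them.

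AURKB (chr17:8204733-8210600, minus strand) showed another order. Its DMSO libraries held 64.2, 79.9 and 99.1 CPM, the widest spread of the 10 genes in that group (SD 17.5 CPM). Both single drugs brought it to a like level, 10.4, 9.68 and 9.83 CPM under abemaciclib and 7.39, 11.0 and 9.77 CPM under fulvestrant, and these groups overlapped. In the combination 2, 6 and 7 counts remained, or 1.26% of the DMSO mean. Its log2 fold change under abemaciclib, -3.03 ± 0.17, was the largest of the 10 genes for that drug.

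PLK1 (chr16:23677656-23690367, plus strand) went from 132, 147 and 163 CPM in DMSO to 29.7, 31.0 and 36.8 CPM under abemaciclib and 14.5, 9.28 and 10.5 CPM under fulvestrant. The combination libraries held 2, 3 and 5 counts, pooling to 0.705 CPM (95% Poisson interval 0.338 to 1.30), or 0.468% of the DMSO mean. This was a log2 fold change of -7.65 ± 0.22.

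NEK2 (chr1:211658657-211675630, minus strand) was even across the DMSO libraries, at 50.0, 49.3 and 49.3 CPM. It fell to 9.97, 12.3 and 16.4 CPM under abemaciclib and to 3.94, 2.53 and 5.45 CPM under fulvestrant. With 0, 2 and 0 counts the combination was at the floor, so that NEK2 was at least 77.4-fold lower than in DMSO and at least 6.21-fold lower than under fulvestrant, where the bound sets the combination to 3 counts per library.

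The regulators of CDK1 phosphorylation split. PKMYT1 (chr16:2968024-2980479, minus strand) behaved like the mitotic kinases, at 63.9, 52.5 and 62.7 CPM in DMSO, 15.8, 19.4 and 15.4 CPM under abemaciclib, 5.67, 3.94 and 7.04 CPM under fulvestrant and 2, 3 and 4 counts in the combination. CDC25C (chr5:138285269-138338355, minus strand) fell from 24.9, 31.4 and 31.9 CPM to 9.97, 11.2 and 10.3 CPM under abemaciclib and 3.45, 1.69 and 1.82 CPM under fulvestrant. The combination, with 1, 1 and 0 counts, was at the floor and at least 46.0-fold below DMSO. Genes with counts of their own overlap both loci on the opposite strand (KREMEN2 and PAQR4 at PKMYT1, FAM53C at CDC25C), and the strand setting of counting is not given in the sources used here, so their levels are uncertain in this respect.

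WEE1 (chr11:9573670-9593457, plus strand) was the exception. Its libraries held 26.6, 31.3 and 35.7 CPM in DMSO, 15.2, 15.2 and 19.4 CPM under abemaciclib, 24.1, 29.2 and 19.8 CPM under fulvestrant and 15.8, 20.6 and 15.7 CPM in the combination. Fulvestrant libraries overlapped those of DMSO, and combination libraries overlapped those of abemaciclib. WEE1 fell under abemaciclib (log2 fold change -0.93 ± 0.17, adjusted p = 5.76e-05) and in the combination (-0.85 ± 0.16, adjusted p = 7.81e-05) by edgeR. Under fulvestrant its change was -0.38 ± 0.16 with an adjusted p of 0.0530, just outside the threshold, and it passed without DMSO replicate 1 (-0.46, adjusted p = 0.0290) or without fulvestrant replicate 2 (-0.52, adjusted p = 0.0140).

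**Figure D3:**
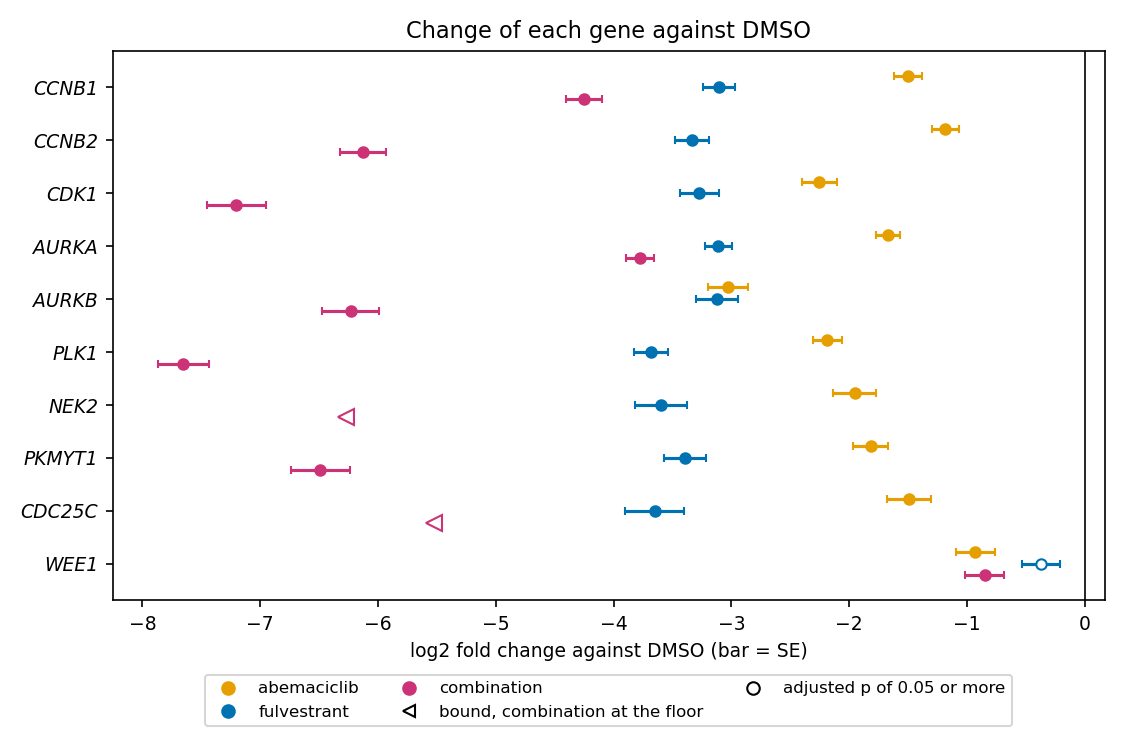
Log2 fold change against DMSO of each gene under the 3 treatments, with SE bars from the edgeR fit to 12 libraries. Filled points passed an adjusted p of 0.05, the open circle (WEE1 under fulvestrant, -0.38) did not, and open triangles are bounds for NEK2 (-6.27) and CDC25C (-5.52), whose combination libraries were at the floor. The combination points lie furthest left for 9 genes, and the 3 points of WEE1 all lie above -1.

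Fulvestrant and abemaciclib were compared directly. Of the 10 genes, 8 were lower under fulvestrant (background 15.5% of genes tested) and 1, WEE1, was higher (background 13.4%). The largest differences were those of CDC25C (log2 fold change -2.16 ± 0.29) and CCNB2 (-2.15 ± 0.15), and the smallest of the 8 was that of CDK1 (-1.02 ± 0.19). AURKB differed by -0.10 ± 0.22 with an adjusted p of 0.790 in edgeR, and the difference turned to 0.055 without fulvestrant replicate 1. WEE1 was higher under fulvestrant by 0.55 ± 0.17 with an adjusted p of 0.0171 in edgeR. That call was lost without abemaciclib replicate 1 (0.49, adjusted p = 0.0793), abemaciclib replicate 2 (0.50, adjusted p = 0.0746) or fulvestrant replicate 2 (0.41, adjusted p = 0.103).

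The combination was then set against each drug alone. Against abemaciclib 9 of the 10 genes were lower (background 17.7%), with log2 fold changes from -2.10 ± 0.13 for AURKA to -5.47 ± 0.26 for PLK1 among the genes above the floor, and WEE1 differed by 0.08 ± 0.18. Against fulvestrant 9 of the 10 were lower as well, where only 1.63% of all genes tested were. PLK1 (-3.97 ± 0.32), CDK1 (-3.93 ± 0.37), AURKB (-3.11 ± 0.34), PKMYT1 (-3.10 ± 0.39) and CCNB2 (-2.79 ± 0.29) fell further, and CCNB1 (-1.15 ± 0.20) and AURKA (-0.67 ± 0.15, adjusted p = 0.00893 by edgeR) had the smallest of the 9 differences. Without combination replicate 3 the value of CDK1 was -4.81. The call for AURKA was lost without fulvestrant replicate 3, the library that stood apart (-0.47, adjusted p = 0.0747), and in a fit of the 2 groups alone (-0.67, adjusted p = 0.114). WEE1 differed from fulvestrant by -0.48 ± 0.17 on the log2 scale with an adjusted p of 0.212, and it passed without fulvestrant replicate 3 (-0.61, adjusted p = 0.0326).

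The interaction asks whether abemaciclib changed a gene by a different factor when fulvestrant was present, and is the difference of the 2 log2 fold changes. This reading takes the combination to hold the doses of the single drugs, which the labels do not restate. The interaction was negative and past the threshold for 6 of the 10 genes (background 11.6%) and positive for 1 (background 9.45%). AURKA carried the positive one, 1.01 ± 0.18 with an adjusted p of 1.69e-04 in edgeR: its combination level, 14.7 CPM, was 2.02 times the 7.28 CPM given by multiplying the single-drug effects. PLK1 (-1.79 ± 0.40, adjusted p = 0.00177) and CCNB2 (-1.61 ± 0.32, adjusted p = 6.54e-04) carried negative ones that passed in every leave-one-out fit, as did that of AURKA, with combination levels at 0.273 and 0.317 times the product.

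For CDK1 the interaction was -1.67 ± 0.46 with an adjusted p of 0.00955 in edgeR, and it was lost without combination replicate 2 (-1.27, adjusted p = 0.0692), the library with 1 count. Without combination replicate 3 it was -2.56. NEK2 (-2.64), CDC25C (-2.31) and PKMYT1 (-1.28) also passed, with products of the single-drug effects at 1.62, 1.29 and 2.45 times the level of 3 counts, and the combination of NEK2 and CDC25C was at the floor. NEK2 was lost without combination replicate 1 or 3, and its fitted value ranged from -5.22 to -2.09 over the leave-one-out fits, the lowest without combination replicate 2, which held its only counts in that group. CDC25C was lost without fulvestrant replicate 1, combination replicate 2 or combination replicate 3, and PKMYT1 in 7 of the 12 leave-one-out fits, that without fulvestrant replicate 3 among them (-1.06, adjusted p = 0.103). CCNB1 (0.35 ± 0.24), WEE1 (0.45 ± 0.24) and AURKB (-0.08 ± 0.33) did not pass.

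**Figure D4:**
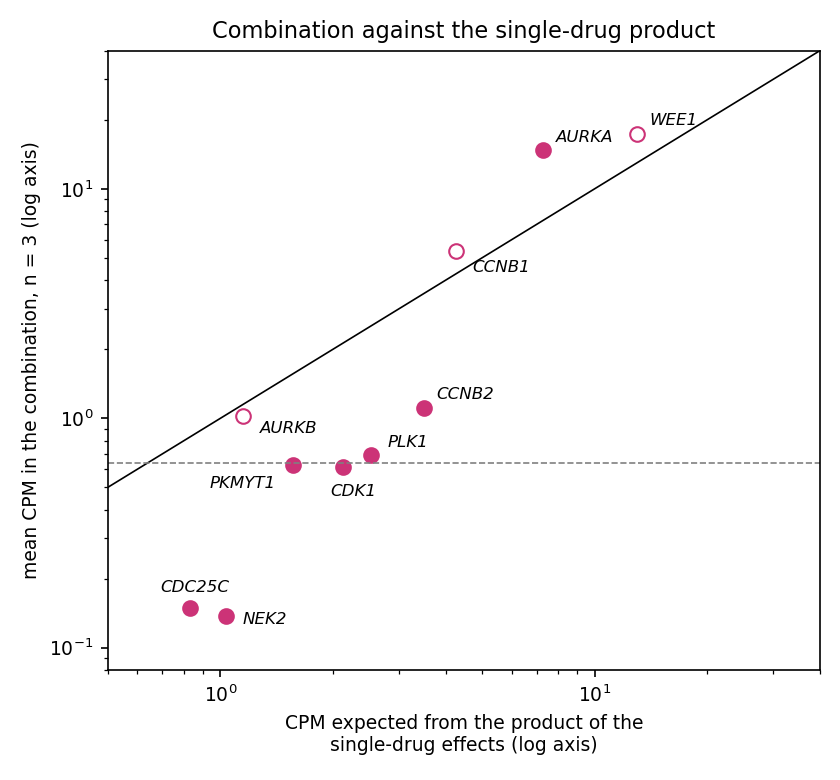
Combination level of each gene against the level given by multiplying the single-drug effects, both in CPM on log axes. The product takes the combination to hold the doses of the single drugs. The diagonal marks equality, the dashed line the mean level of 3 counts (0.640 CPM), and filled points passed the edgeR interaction test. AURKA lies 2.02 times above its product, CCNB2, CDK1 and PLK1 lie at 0.317, 0.289 and 0.273 times theirs, and CDK1, PKMYT1, NEK2 and CDC25C lie below the dashed line.

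Ratios of counts within a library do not depend on how libraries are scaled, and 4 pairs were compared between each pair of groups (24 exact permutation tests, two-sided, on log2 ratios with 0.5 added to each count). The ratio of WEE1 to CDK1 was 0.251, 0.344 and 0.370 in DMSO, 0.710, 0.821 and 0.906 under abemaciclib, 2.18, 2.31 and 2.90 under fulvestrant and 33.0, 100.0 and 13.5 in the combination. The ratio of WEE1 to its relative in function PKMYT1 went from a mean of 0.527 in DMSO to 1.00, 4.83 and 28.9. No group overlapped another for either ratio, each with an exact permutation p of 0.1 (adjusted p = 0.12), the smallest p these groups allow. The combination ratios rest on 1 to 6 counts of CDK1 and 2 to 4 of PKMYT1.

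The Aurora kinases and the B cyclins also parted. AURKA to AURKB was 2.61 ± 0.756 (SD, n = 3) in DMSO and 2.51 ± 0.496 under fulvestrant, which overlapped, and 6.38 ± 0.467 under abemaciclib and 17.7 ± 10.7 in the combination, which overlapped no other group. CCNB1 to CCNB2 was 1.28 ± 0.112 in DMSO, 1.04 ± 0.236 under abemaciclib and 1.51 ± 0.194 under fulvestrant, groups that overlapped, and 5.34 ± 1.92 in the combination, which stood above all of them. The combination ratios rest on 2, 6 and 7 counts of AURKB and on 3, 8 and 5 of CCNB2. In all, 20 of the 24 comparisons showed no overlap and reached the smallest exact permutation p (0.1, adjusted p = 0.12), and 4 did not. The pairs were chosen after their values were seen, and no share over other gene pairs was computed. This count is therefore a description only.

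Over the 12 libraries, the log2 CPM of each of 9 genes followed the mean of the others closely, with Pearson correlations between 0.947 (AURKA) and 0.989 (PLK1). For WEE1 the correlation was 0.567. These values describe libraries that share treatment, and no p is attached to them. The 10 other genes most like the mean profile, of 8454 with a mean of at least 10 CPM, were SPC24, SKA3, KIF14, CDKN3, CENPM, BUB1B, DLGAP5, KIF20A, CLSPN and NCAPG (correlations 0.995 to 0.990). SPC24 itself went from 41.3 CPM in DMSO to 8.27, 4.09 and 0.133 CPM. Ranked by Spearman correlation, only SPC24 and BUB1B were again among the first 10. Most like WEE1 by Pearson correlation were STK24 (0.945), COMMD3 (0.925) and DIPK2A (0.916), and 0 of these were among the first 3 by Spearman correlation (PAFAH1B3, PHF19 and CHAMP1).

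Partners and regulators of CDK1 and genes of its pathway were read from a list of 14. The share of all genes tested that was called higher was 20.5% under abemaciclib, 25.3% under fulvestrant and 27.7% in the combination against DMSO, beside 20.7%, 25.7% and 27.5% called lower. Under abemaciclib 8 fell and 1 rose, under fulvestrant 9 fell and 4 rose, in the combination 9 fell and 4 rose against DMSO, and 2 fell against fulvestrant, where 1.63% of all genes did. The list median was -0.63, -1.26 and -1.29 against DMSO. CCNA2, the gene of cyclin A2, fell most, from 93.8 CPM in DMSO to 8.36 CPM under abemaciclib (log2 fold change -3.48 ± 0.15), 6.95 CPM under fulvestrant and the floor in the combination, at least 147-fold below DMSO. CDK7, of the CDK-activating kinase, rose under abemaciclib (0.69 ± 0.16). MNAT1, of the same kinase, fell under abemaciclib (-0.84 ± 0.18), fulvestrant (-0.65 ± 0.18) and in the combination (-1.05 ± 0.18). CCNH, also of that kinase, did not pass under any of these treatments (0.60, 0.42 and -0.02). GADD45A (0.97 and 1.18), ARPP19 (0.36 and 0.52), ENSA (0.40 and 0.25) and CDK7 (0.40 and 0.40) rose under fulvestrant and in the combination, against the direction of most of the list. ARPP19 and ENSA encode inhibitors of the phosphatase that opposes CDK1.

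Genes that work with Aurora kinases and PLK1 followed them more closely. Of 11, all fell under abemaciclib (20.7% of all genes tested), 10 under fulvestrant (25.7%) and 10 in the combination (27.5%), with medians of -1.58, -3.22 and -5.89, the last being -4.55 with floor genes at their bound. Against fulvestrant 7 fell further in the combination (1.63% of all genes), among them BIRC5 (survivin, a subunit of the AURKB complex), by -4.31 ± 0.28, and TPX2 (an activator of AURKA), by -1.42 ± 0.13. GTSE1 had the largest fall under abemaciclib (-3.10 ± 0.17) and ERCC6L under fulvestrant (-4.13 ± 0.35). The value of ERCC6L rests on 5, 3 and 2 counts under fulvestrant, and that of BIRC5 on 2, 4 and 7 counts in the combination. INCENP, the scaffold of the same complex, differed from fulvestrant by 0.40 ± 0.23 with an adjusted p of 0.53 in edgeR. A list of 8 further cell cycle kinases (BUB1B, TTK, MELK, PBK, VRK1, CIT, PLK4 and CDC7) fell in 8 of 8 cases against DMSO under each treatment, and 6 fell further in the combination than under fulvestrant, beside the same shares of all genes. In the combination TTK, PBK, CIT, PLK4 and CDC7 were at the floor. CDC7, which acts at replication origins in S phase, had the largest fall under abemaciclib (-2.78 ± 0.43) and CIT under fulvestrant (-3.70 ± 0.34). These values rest on few counts: 4, 4 and 3 of CDC7 under abemaciclib and 5, 6 and 3 of CIT under fulvestrant.

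Relatives of these genes by family went both ways. Of 19 relatives 12 were tested, and under abemaciclib 2 fell and 5 rose, under fulvestrant 3 fell and 5 rose, and in the combination 3 fell and 5 rose, with medians of 0.14, 0.17 and 0.23. The shares of all genes called lower were 20.7%, 25.7% and 27.5%, and higher 20.5%, 25.3% and 27.7%. These counts and medians leave out CDK7, CCNA2 and CCNF, of the CDK and cyclin families, which were counted among the partners of CDK1. Also left out are PLK4, CDC25A and CDC25B, relatives of PLK1 and CDC25C that were counted in the lists above. Under abemaciclib and fulvestrant PLK4 changed by -0.87 and -2.70, CDC25A by -1.85 and -2.96 and CDC25B by -0.80 and -1.91. All of them were also lower in the combination, where PLK4 was at the floor. NEK5 rose most: its libraries held 6.81, 7.39 and 6.18 CPM in DMSO, 19.7, 24.4 and 15.6 CPM under abemaciclib, 22.7, 20.2 and 20.5 CPM under fulvestrant and 27.6, 30.1 and 24.0 CPM in the combination. The direction is opposite to that of NEK2, with no overlap between DMSO and any treated group. NEK9, NEK11 and PLK2 rose under both drugs as well, PLK2 from 44.1 CPM in DMSO to 74.1 CPM under abemaciclib and 64.8 CPM under fulvestrant. NEK6 rose under abemaciclib alone (1.13 ± 0.11 on the log2 scale, against -0.13 ± 0.12 under fulvestrant), and its interaction of -0.78 ± 0.16 passed the test (adjusted p = 7.12e-04, edgeR). NEK3 fell under all 3 treatments (-0.79 ± 0.19, -0.83 ± 0.20 and -1.23 ± 0.20), and NEK8 fell under fulvestrant (-1.40 ± 0.51) and in the combination (-1.29 ± 0.48), in the direction of NEK2. The fall of NEK8 rests on few counts: 10, 11 and 21 in DMSO, 3, 4 and 7 under fulvestrant and 2, 6 and 10 in the combination. CDK2, the S-phase kinase nearest to CDK1, fell from 188.5 CPM to 79.4 and 68.8 CPM, a log2 fold change of -1.25 ± 0.17 and -1.46 ± 0.18.

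**Figure D5:**
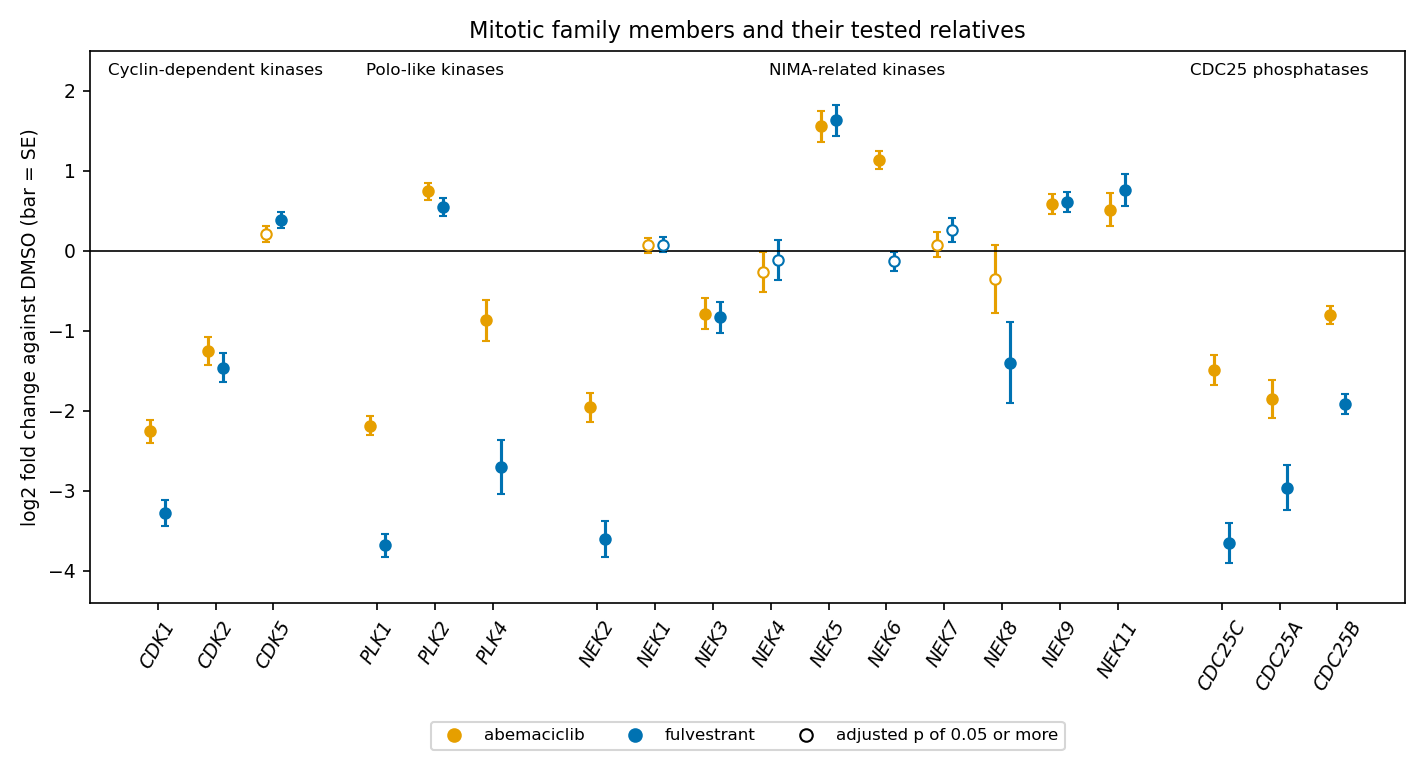
Log2 fold change against DMSO (edgeR, SE bars) under abemaciclib and fulvestrant for CDK1, PLK1, NEK2 and CDC25C and for selected tested genes of the same families. CDK7 is not drawn. Filled points passed an adjusted p of 0.05. The first gene of each family fell under both drugs, while NEK5 (1.55 and 1.63), NEK9, NEK11 and PLK2 rose under both. Relatives that fell under both were CDK2 (-1.25 and -1.46), NEK3 (-0.79 and -0.83), PLK4 (-0.87 and -2.70), CDC25A (-1.85 and -2.96) and CDC25B (-0.80 and -1.91).

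Regulators known to act at CHR and CCAAT promoters were described from a list of 13, of which 12 were tested. Under abemaciclib 5 fell, under fulvestrant 7, and in the combination 6, while the others did not pass, beside 20.7%, 25.7% and 27.5% of all genes called lower. Against fulvestrant 2 fell further (1.63% of all genes). Both of these activate mitotic genes. MYBL2 (B-MYB) was read at 219, 263 and 270 CPM in DMSO, 88.2, 85.0 and 79.1 CPM under abemaciclib, 28.3, 22.8 and 20.2 CPM under fulvestrant and 1, 0 and 0 counts in the combination, at least 392-fold below DMSO and at least 37.2-fold below fulvestrant. FOXM1 went from 53.4 ± 2.15 CPM (SD, n = 3) in DMSO to 12.8 ± 1.41, 8.94 ± 2.45 and 1.88 ± 0.791 CPM. Of the pocket protein genes, RBL1 fell from 32.5 CPM in DMSO to 8.44, 7.59 and 5.23 CPM (-1.93 ± 0.19, -2.08 ± 0.20 and -2.63 ± 0.21). RBL2, E2F4 and the CCAAT-binding NFYA, NFYB and NFYC did not pass in any of the 3 comparisons with DMSO, with E2F4 at 27.2, 28.1, 25.1 and 25.0 CPM.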

How the data were processed

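The authors deposited raw counts per gene symbol from single-end 3′ libraries of CAMA-1 cells. Per the labels, reads were aligned with STAR to hg38 and counted with featureCounts 2.0.1, and the strand setting of counting is not given in the sources used here. The 44 rows without a name held 0 reads and were left out. Tests used edgeR 4.0.16 (R 4.3.3). Genes passed filterByExpr (minimum count 10, minimum total 15), libraries were scaled by TMM, and a robust quasi-likelihood model with 4 group means was fitted to all 12 libraries (biological coefficient of variation 0.0918). P values were adjusted by Benjamini-Hochberg over 11803 genes. SE values derive from the F statistic. Alternatives were DESeq2 1.42.0, other scalings, filters and samples. All replicate pairs differed by more than sampling noise. Same-numbered replicates of different groups did not deviate together (2 of 18 correlations above 0.1, range -0.21 to 0.12), so the number was not used as a pairing. Depth limits precision through counts near 3 per library. Molecular identifiers are not mentioned in the sources used here, and intervals and floors cover counting error only. The pipeline was tested on simulated counts. The members, lists and tests were chosen with earlier results of these data known. Every member is named, and of each list the genes with the largest fall and rise and those against the list's direction, and a few others whose role bears on a member, chosen after their values were seen, as were the tests of count ratios. Coordinates of genes are from GENCODE v44. Those of the printed promoter stretches follow the RefSeq starts, which can differ from the GENCODE gene starts. The stretch of PLK1 lies inside its GENCODE gene.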

Additional observations from a re-analysis of the deposited data

Results flagged for a closer look

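The change under abemaciclib differed with and without fulvestrant for 7 of the 10 genes by the edgeR interaction test (log2 change with fulvestrant minus without). By that test 11.6% of all genes tested had a negative difference and 9.45% a positive one. The difference was -1.61 for CCNB2, -1.67 for CDK1, -1.79 for PLK1, -2.64 for NEK2, -1.28 for PKMYT1 and -2.31 for CDC25C. For AURKA it was 1.01, the only positive one of the 7. The values for NEK2 and CDC25C involve combination libraries at the floor. All 7 differences take the combination to hold the doses of the single drugs, which the labels do not restate. The calls for CCNB2, PLK1 and AURKA held in every leave-one-out fit, and those for CDK1, NEK2, PKMYT1 and CDC25C did not. The causes were not tested.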

How the results depend on the processing

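With at least 10 counts required in every library, 3 of the 10 genes (CCNB1, AURKA and WEE1) could be tested, and the number lower fell to 3 for each treatment against DMSO, 2 for fulvestrant against abemaciclib, 2 for the combination against abemaciclib, 2 for the combination against fulvestrant and 0 for the interaction, because of the fewer genes tested. Leaving out 1 library at a time gave 3 to 6 genes with a negative interaction and 9 to 10 genes lower under fulvestrant, and a median between -1.60 and -1.40 for fulvestrant against abemaciclib. The interaction count fell to 3 without combination replicate 2 and without combination replicate 3. With the replicate number as a block, 5 genes had a negative interaction, PKMYT1 being lost (-1.28, adjusted p = 0.0520), and no other call changed. PKMYT1 was also lost with library totals (adjusted p = 0.0663), no filter (0.0553), thinning to the smallest total (0.206) and DESeq2 (0.0939), and CDC25C with DESeq2 (0.0960). WEE1 under fulvestrant passed with RLE scaling (adjusted p = 0.0485), library totals (0.0263) and the stricter filter (0.0484), and its call against abemaciclib was lost after thinning (0.0662). Differences that had not passed turned sign: AURKB between the single drugs without fulvestrant replicate 1 (0.055, leave-one-out range from -0.211); WEE1 between the combination and abemaciclib after thinning (-0.20) and without combination replicate 2 (-0.066, leave-one-out range up to 0.20); and the AURKB interaction with library totals (0.029) and without DMSO replicate 1, fulvestrant replicate 2 or combination replicate 1 (leave-one-out range -0.34 to 0.20). The causes were not tested. The fit of the groups compared alone does not apply to the interaction.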
